A study of Mus musculus with 37 samples.

Results

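The receptors through which cells sense extracellular nucleotides and adenosine were followed across cardiac fibroblasts, cardiac myocytes and the nonmyocytes of the infarcted heart. The group holds 9 genes, chosen by name: P2rx4, P2rx7, P2ry1, P2ry2, P2ry6, P2ry14, Adora1, Adora2a and Adora2b. All 9 were rows of each table, out of 30892 genes in the fibroblast table, 20158 in the myocyte table and 31053 in the single-cell tables. After the filter on low counts 7 of the 9 remained among the 17879 genes tested in fibroblasts (P2ry14 and Adora1 did not pass), and 8 of the 9 among the 13461 tested in myocytes (P2ry14 did not pass).

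ATP that leaves a cell can open P2X receptors, which are ligand-gated cation channels, or activate P2Y receptors, which couple to G proteins. Ectonucleotidases cut it down outside the cell. ENPP1 turns ATP into AMP and pyrophosphate, and AMP is then cut to adenosine, the ligand of the P1 or adenosine receptors. Which receptors a cell carries decides which of these molecules it can sense, and in the heart fibroblasts, myocytes, vessels and leukocytes carry different sets. Injured tissue releases ATP, and both the P2 and the P1 receptors are known for roles in inflammation and repair.

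The study asked how ENPP1 and the AMP it makes act on cells of the injured heart. Cardiac fibroblasts (CFs, C57BL/6 mouse cells immortalized with the SV40 antigen) received medium conditioned by neonatal rat ventricular myocytes (NRVMs, Sprague-Dawley) that had been treated with vehicle, ATP, recombinant ENPP1, ENPP1+ATP or AMP, and were sampled after 24 h and 48 h with 2 libraries per medium and time (20 libraries). The NRVMs were sampled after 24 h of the same 5 treatments with 3 libraries each (15 libraries). Their sample titles name the treatment only, and the study also reports how myocytes responded to conditioned medium. Whether these NRVMs received the compounds or conditioned medium is therefore not settled by the titles. Single cells came from nonmyocytes 7 days after infarction caused by tying off the left anterior descending artery for good. One library was from ENPP1CKO mice (Col1a2-CreERT with ENPP1 fl/fl, so that tamoxifen deletes Enpp1 in Col1a2-expressing cells, tamoxifen given before and after injury) and 1 from control mice, whose genotype is labelled wild type. The number of hearts in each library is not given in the sources used here. The CF line is 1 line, and the labels number the replicates without saying whether they were separate cultures, so p-values measure only the spread between these libraries. The fibroblasts saw medium from myocytes, so a change in them is a response to the whole conditioned medium and not to ATP or AMP alone.

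The CF libraries held 32184799 to 115824659 counted reads and the NRVM libraries 13481389 to 16977980, and the deepest library was replicate 1 of the CF vehicle group at 24 h. In CFs 8 of 10 fibroblast markers were above 1 CPM (reads scaled to a common library total) in every library, Lum being at or under 0.336 CPM in all, whereas 6 of 10 macrophage markers, C1qa, C1qb, C1qc, Adgre1, Fcgr1 and Mrc1, were under 1 CPM in every library. In NRVMs all 9 cardiomyocyte markers in the table were above 1 CPM in every library, but so were all 9 fibroblast markers, so the NRVM libraries also contained fibroblast transcripts. The single-cell libraries held 7460 barcodes (ENPP1CKO) and 5347 barcodes (control), of which 68 occurred in both, and 7255 and 5240 cells were kept. The targeted gene Enpp1 had 127 CPM in control and 28.4 CPM in ENPP1CKO fibroblast-like cells, and where the floxed part lies relative to the counted reads is not given in the sources used here.

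Some members lie close together in the mouse genome (GRCm38, GENCODE M21). P2rx7 (chr5:122643911-122691432) and P2rx4 (chr5:122707544-122729738) are both on the plus strand of chromosome 5 with 16111 bases between them. P2ry6 (chr7:100937630-100974649) and P2ry2 (chr7:100996568-101012866) are both on the minus strand of chromosome 7 with 21918 bases between them. P2ry1 is at chr3:61002795-61008982 and P2ry14 at chr3:59113855-59153618 (minus strand), Adora1 at chr1:134199223-134235431 (minus strand), Adora2a at chr10:75316877-75334784 and Adora2b at chr11:62248984-62266453. On the opposite strand, Gm37035 shares 23.1% of the exon bases of P2ry1 and Mybph shares 20.1% of those of Adora1, and whether reads were counted by strand is not given in the sources used here, so reads of these pairs may not be separated.

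RefSeq promoter windows were available for 7 of the 9 members, and 3 are shown because their genes gave the clearest patterns below: P2rx7 rose in CFs, the nearby P2rx4 moved little, and Adora2b was lowered at 24 h only. Each runs from 250 bases before the RefSeq start and is 234 bases long (GRCm38.p6, plus strand: P2rx7 chr5:122643677-122643910, P2rx4 chr5:122707294-122707527, Adora2b chr11:62248734-62248967). Capitals mark matches to the GC box (GGGCGG) or to the AP-1 motif (TGANTCA), on either strand.
P2rx7: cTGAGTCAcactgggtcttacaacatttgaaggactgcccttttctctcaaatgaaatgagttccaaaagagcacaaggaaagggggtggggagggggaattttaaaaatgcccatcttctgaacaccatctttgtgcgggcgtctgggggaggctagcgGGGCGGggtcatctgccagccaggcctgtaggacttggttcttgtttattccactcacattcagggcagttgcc
P2rx4: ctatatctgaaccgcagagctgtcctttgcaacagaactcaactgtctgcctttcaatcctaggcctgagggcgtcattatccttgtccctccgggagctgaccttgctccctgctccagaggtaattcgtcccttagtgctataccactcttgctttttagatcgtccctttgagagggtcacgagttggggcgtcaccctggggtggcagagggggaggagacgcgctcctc
Adora2b: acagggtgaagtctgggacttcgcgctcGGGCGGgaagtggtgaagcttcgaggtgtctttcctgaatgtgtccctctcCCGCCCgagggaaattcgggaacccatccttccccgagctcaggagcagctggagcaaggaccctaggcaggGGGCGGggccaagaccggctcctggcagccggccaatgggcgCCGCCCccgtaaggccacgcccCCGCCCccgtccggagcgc
P2rx7 has 2 windows in RefSeq, of which the upstream one is shown; the other (chr5:122650133-122650366) held neither motif. The P2rx7 window shown held 1 AP-1 match and 1 GC box match, the P2rx4 window held neither, and the Adora2b window held 5 GC box matches. Of all 32851 RefSeq windows of this length, 30.4% held the GC box letters and 6.45% the AP-1 letters. None of the 3 windows held the cAMP response element letters (TGACGTCA) or TATAAA, which 1.35% and 11.9% of all windows held. A match is a description of the letters only.

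In CFs the P2X channels were the most abundant members. Scaled to exon length and library total as RPKM, P2rx4 lay between 8.89 and 14.6 in the 20 libraries and P2rx7 between 2.99 and 12.6. P2ry1 (1.36 to 1.89 RPKM) and Adora2b (0.318 to 1.83 RPKM) followed, and P2ry2, P2ry6 and Adora2a stayed at or under 0.724 RPKM. Under vehicle medium at 24 h the order by mean RPKM was P2rx4 (10.7), P2rx7 (3.44), P2ry1 (1.76), Adora2b (1.22), P2ry2 (0.624), Adora2a (0.361) and P2ry6 (0.0879), and the 2 libraries of no neighbours in this order overlapped. Adora1 had 0 to 9 reads per library and P2ry14 0 or 1, so neither could be compared in CFs.

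P2rx7, the ATP-gated channel whose opening is known to trigger inflammasome activity, had the smallest adjusted p of the group in each comparison of ATP, ENPP1+ATP or AMP medium with vehicle. With vehicle medium the 2 libraries gave 20.4 and 20.7 CPM at 24 h and 17.9 and 19.9 CPM at 48 h. Medium of ATP-treated myocytes gave 28.8 and 30.8 CPM at 24 h and 33.4 and 27.5 CPM at 48 h. These levels lay above every vehicle library and below every library of the ENPP1+ATP and AMP media. ENPP1+ATP medium gave 48.0 and 47.3 CPM at 24 h and 67.7 and 74.0 CPM at 48 h. AMP medium gave 52.9 and 60.8 CPM at 24 h and 65.2 and 75.4 CPM at 48 h. The groups therefore ran in 3 steps, vehicle and ENPP1 alone at the bottom, ATP between, ENPP1+ATP and AMP at the top.

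On the log2 scale P2rx7 rose against vehicle at 24 h by 0.54 ± 0.10 (adjusted p = 8.44e-04) with ATP medium (log2 fold change ± standard error), by 1.21 ± 0.10 (adjusted p = 8.65e-10) with ENPP1+ATP and by 1.47 ± 0.10 (adjusted p = 2.27e-11) with AMP. At 48 h the changes were 0.70 ± 0.10 (adjusted p = 7.46e-05), 1.91 ± 0.10 (adjusted p = 5.96e-13) and 1.90 ± 0.10 (adjusted p = 5.94e-13) in the same order. ENPP1+ATP medium exceeded ATP medium by 0.68 ± 0.10 (adjusted p = 6.42e-06) at 24 h and by 1.21 ± 0.10 (adjusted p = 1.41e-09) at 48 h. The rise from 24 h to 48 h, beyond that of vehicle, was 0.70 ± 0.14 (adjusted p = 5.54e-04) with ENPP1+ATP and 0.43 ± 0.14 (adjusted p = 0.022) with AMP. All of these calls held when any 1 library was left out, except the last: without AMP 24 h replicate 1, AMP 48 h replicate 2, vehicle 48 h replicate 1 or either vehicle 24 h library the AMP difference lay between 0.32 and 0.44 with adjusted p between 0.058 and 0.12. In bulk samples fewer cells of a type and less RNA per cell cannot be told apart.

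**Figure D1:**
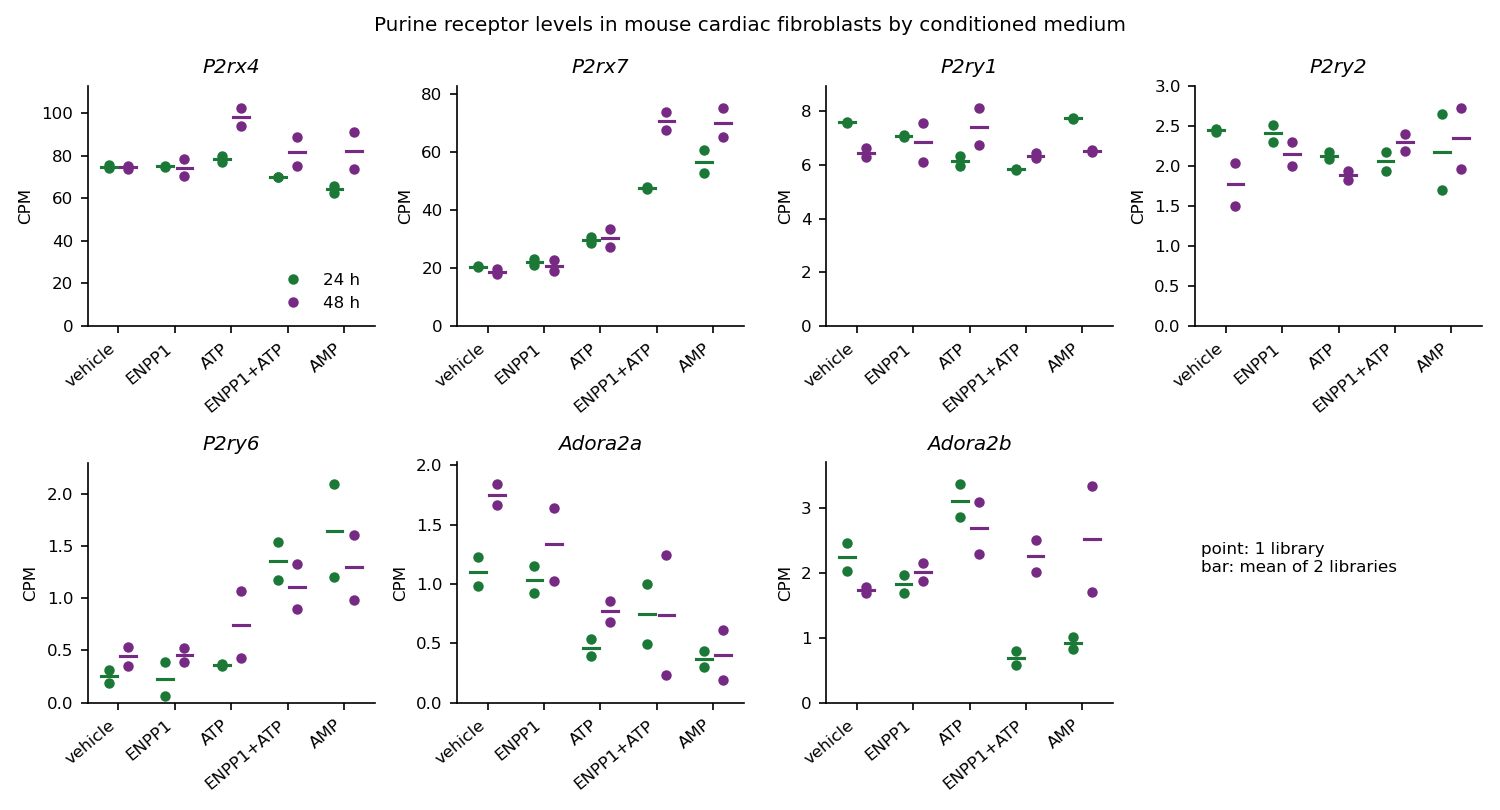
CPM (y axis, linear from 0) of the 7 tested receptors in each of the 20 CF libraries by conditioned medium (x axis), green for 24 h and purple for 48 h, with 1 point per library and a bar at the mean of 2. P2rx7 climbs from 17.9 to 20.7 CPM under vehicle to 65.2 to 75.4 CPM under ENPP1+ATP and AMP at 48 h, whereas P2rx4 stays between 62.5 and 102 CPM, and Adora2b under ENPP1+ATP and AMP is low at 24 h but not at 48 h.

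P2rx4, the other ATP-gated channel and the highest member, moved little. Its vehicle libraries stood at 75.5 and 74.1 CPM at 24 h and 75.2 and 73.7 CPM at 48 h, and over all 20 libraries it stayed between 62.5 and 102 CPM. It rose with ATP medium at 48 h (102 and 94.1 CPM) by 0.40 ± 0.08 (adjusted p = 0.0022) and fell with AMP medium at 24 h (62.5 and 65.7 CPM), with a log2 fold change of -0.22 ± 0.08 (adjusted p = 0.025). ENPP1+ATP medium at 48 h lay below ATP medium (74.9 and 88.6 CPM), a difference of -0.27 ± 0.08 (adjusted p = 0.011). The ATP call at 48 h was lost without ATP replicate 1 at 0.34 (adjusted p = 0.059), the AMP call at 24 h without any 1 of its 4 libraries (-0.26 to -0.19, adjusted p between 0.051 and 0.16), and the ENPP1+ATP against ATP call without replicate 1 of either group (-0.21 and -0.16). Against vehicle at 48 h the log2 fold change of P2rx4 was 0.13 ± 0.08 (adjusted p = 0.2) with ENPP1+ATP and 0.14 ± 0.08 (adjusted p = 0.16) with AMP, and these values rested on single libraries. With 1 library left out the ENPP1+ATP value ranged from 0.011 to 0.25 and the AMP value from -0.015 to 0.30. The highest values, 0.25 without ENPP1+ATP replicate 1 and 0.30 without AMP replicate 1, passed the edgeR test (adjusted p = 0.026 and 0.0036), and the lowest were those without replicate 2 of each. From 24 h to 48 h it changed beyond vehicle by 0.37 ± 0.11 (adjusted p = 0.018) with AMP, a call lost without vehicle 24 h replicate 1, AMP 24 h replicate 1, vehicle 48 h replicate 2 or AMP 48 h replicate 2 (0.21 to 0.36).

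Among the P2Y receptors P2ry6, which is known as a receptor for UDP, rose from a very low level. It had 36 and 8 reads (0.315 and 0.192 CPM) in the vehicle libraries at 24 h, 48 and 68 reads (1.17 and 1.54 CPM) with ENPP1+ATP and 86 and 92 reads (2.09 and 1.20 CPM) with AMP. The 2 media did not overlap with vehicle, and the log2 fold changes at 24 h were 2.33 ± 0.53 (adjusted p = 6.19e-04) and 2.59 ± 0.52 (adjusted p = 1.65e-04). With ATP medium it was at 0.370 and 0.349 CPM, 0.42 ± 0.58 against vehicle (adjusted p = 0.79), and ENPP1+ATP exceeded ATP by 1.91 ± 0.53 (adjusted p = 0.0049). At 48 h the differences were 1.31 ± 0.52 (adjusted p = 0.044) and 1.53 ± 0.51 (adjusted p = 0.017). Both 48 h calls rested on single libraries: the ENPP1+ATP one was lost without either vehicle library (1.64 and 1.04) or ENPP1+ATP replicate 2 (1.00), and the AMP one without vehicle replicate 2 (1.27) or AMP replicate 2 (1.14).

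The ADP receptor P2ry1 and the ATP and UTP receptor P2ry2 showed no change past the threshold at 48 h. P2ry1 was at 7.56 and 7.59 CPM with vehicle and 5.85 and 5.82 CPM with ENPP1+ATP at 24 h, a difference of -0.38 ± 0.13 (adjusted p = 0.017) that was lost when any 1 of the 4 libraries was left out (-0.38 to -0.37, adjusted p between 0.063 and 0.081). With AMP at 24 h it was at 7.76 and 7.70 CPM, 0.03 ± 0.12 (adjusted p = 0.86) against vehicle. P2ry2 lay between 1.51 and 2.73 CPM in all 20 libraries, and its log2 fold changes against vehicle ran from -0.25 ± 0.24 (ENPP1+ATP, 24 h) to 0.41 ± 0.25 (AMP, 48 h), none of which passed.

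The adenosine receptors encoded by Adora2a and Adora2b, which couple to the stimulatory G protein and so raise cAMP, fell with AMP medium, Adora2b at 24 h only and Adora2a at both times. Adora2b was at 2.03 and 2.47 CPM with vehicle at 24 h, 3.37 and 2.86 CPM with ATP, 0.587 and 0.792 CPM with ENPP1+ATP and 1.02 and 0.824 CPM with AMP. The ENPP1+ATP and AMP libraries lay below every other CF library, and the log2 fold changes against vehicle were -1.69 ± 0.31 (adjusted p = 6.33e-05) and -1.29 ± 0.29 (adjusted p = 5.78e-04). ENPP1+ATP and ATP media differed by -2.17 ± 0.31 (adjusted p = 2.93e-06).

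By 48 h Adora2b was at 1.69 and 1.79 CPM with vehicle, 2.02 and 2.52 CPM with ENPP1+ATP and 1.71 and 3.34 CPM with AMP. The differences from vehicle were then 0.38 ± 0.28 (adjusted p = 0.3) and 0.54 ± 0.28 (adjusted p = 0.13). The change from 24 h to 48 h beyond that of vehicle was 2.06 ± 0.42 (adjusted p = 4.89e-04) with ENPP1+ATP and 1.83 ± 0.40 (adjusted p = 0.001) with AMP. Both held with any 1 library left out, as did the 24 h calls of Adora2b. The AMP libraries of 48 h differed from each other, and the AMP difference at 48 h was -0.02 (adjusted p = 0.97) without replicate 2 and 0.95 (adjusted p = 0.011) without replicate 1.

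Adora2a had its lowest mean with AMP medium at both times. The AMP libraries gave 0.438 and 0.301 CPM at 24 h and 0.192 and 0.610 CPM at 48 h, against 1.23 and 0.985 CPM and 1.84 and 1.66 CPM with vehicle, from 8 to 140 reads. The log2 fold changes were -1.63 ± 0.54 (adjusted p = 0.014) and -2.11 ± 0.55 (adjusted p = 0.0028). With ENPP1+ATP at 48 h the libraries stood far apart (0.229 and 1.24 CPM) at -1.28 ± 0.52 (adjusted p = 0.047), and without replicate 1, the lower library, the value was -0.49 (adjusted p = 0.45). That call was also lost with RLE scaling, with only the groups compared and without either vehicle library (-1.20 and -1.35). The AMP call at 24 h was lost without vehicle replicate 1 (-1.45) or AMP replicate 2 (-1.35), and the AMP call at 48 h without AMP replicate 1 (-1.51). With ATP medium the differences were -1.27 ± 0.54 (adjusted p = 0.16) and -1.19 ± 0.51 (adjusted p = 0.2). The 24 h and the 48 h value each passed in a fit of only the groups compared, and the 24 h value also passed without the filter.

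The share of members called can be set beside that of all genes. With ENPP1+ATP medium 4 of 7 were called at 24 h (2 higher, 2 lower) where 49.1% of all genes were, and 3 of 7 at 48 h (2 higher, 1 lower) where 45.2% were. With AMP medium 5 of 7 were called at 24 h (2 higher, 3 lower) against 52.8% of all genes, and 3 of 7 at 48 h (2 higher, 1 lower) against 44.0%. With ATP medium 1 of 7 was called at 24 h against 11.1%, and 2 of 7 at 48 h against 7.83%. Fits of only the groups compared called 2 at 24 h and 4 at 48 h, and the fit without the filter called 2 at 24 h. ENPP1+ATP against ATP gave 3 of 7 at 24 h (43.9% of all genes) and 2 of 7 at 48 h (39.5%). Between the times, vehicle gave 0 of 7 (4.88% of all genes; 2859 genes had an unadjusted p under 0.05, and DESeq2 called 0 members), and the change beyond vehicle gave 2 of 7 with ENPP1+ATP (30.0%) and 3 of 7 with AMP (31.7%). The comparisons with vehicle share the same vehicle libraries.

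Some of these counts rested on single libraries. AMP at 24 h gave 3 without vehicle replicate 1 or AMP replicate 2 and 4 without either of the other 2 libraries. ENPP1+ATP at 48 h gave 1 without either vehicle replicate, AMP at 48 h gave 2 to 4, and ATP at 48 h gave 1 without ATP replicate 1. ENPP1+ATP against ATP at 48 h gave 1 without replicate 1 of either group. The AMP change over time gave 1 without vehicle 24 h replicate 1, AMP 24 h replicate 1 or AMP 48 h replicate 2, and 2 without vehicle 24 h replicate 2 or either vehicle 48 h replicate.

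Medium from myocytes given ENPP1 without ATP gave no call for any member. At 24 h and 48 h edgeR called 0 of 7 members and 0% of all genes, with 249 and 743 genes at an unadjusted p under 0.05, and DESeq2 called 0 members at either time. The log2 differences of P2rx7 were 0.11 ± 0.10 and 0.15 ± 0.11, and those of Adora2b -0.28 ± 0.28 and 0.22 ± 0.29.

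**Figure D2:**
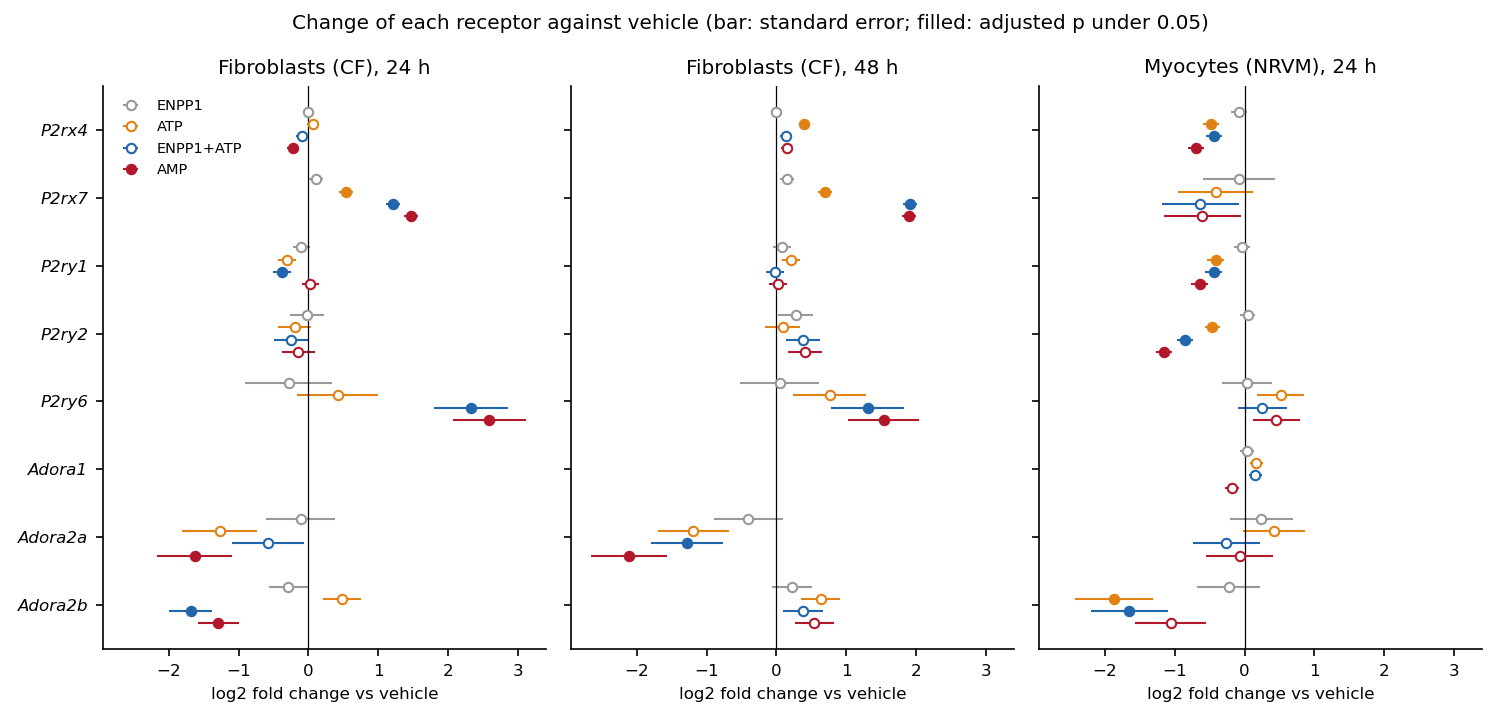
Log2 fold change against vehicle (x axis, bar: standard error) of each tested receptor (y axis) for the 4 treatments, in CFs at 24 h and 48 h and in NRVMs at 24 h, filled where adjusted p was under 0.05. With ATP, ENPP1+ATP and AMP medium P2rx7 and P2ry6 sit to the right in CFs, whereas with these treatments P2rx4, P2ry1, P2ry2 and Adora2b sit to the left in NRVMs, and no point of ENPP1 alone (grey) is filled.

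Marker genes moved along with P2rx7 and P2ry6 in CFs. The summed macrophage markers were 15.8 to 18.3 CPM in the vehicle libraries and 73.0 to 88.4 CPM with ENPP1+ATP or AMP at 48 h. Cd68, a lysosomal protein, carried most of that sum, with log2 changes of 4.30 ± 0.17 (adjusted p = 4.05e-14) and 4.46 ± 0.17 (adjusted p = 2.10e-14), and Csf1r, the receptor for macrophage colony-stimulating factor, rose by 3.21 ± 0.27 (adjusted p = 4.44e-10) and 3.10 ± 0.27 (adjusted p = 8.31e-10). Of the other 2 macrophage markers that passed the filter, Cd14 changed by 0.64 ± 0.15 and 0.61 ± 0.15, both called, and Lyz2 by -0.27 ± 0.17, not called, and -0.55 ± 0.17, called lower. The defining markers C1qa, C1qb, C1qc, Adgre1, Fcgr1 and Mrc1 stayed at or under 0.167 CPM in every CF library. The summed fibroblast markers were 7126 to 7623 CPM with vehicle, 3879 to 4361 CPM with ENPP1+ATP or AMP at 48 h and 2830 to 3706 CPM with these media at 24 h. Of the 4 macrophage markers tested, ATP medium raised 2 and lowered 1 at 24 h and raised 2 at 48 h. At 24 h ENPP1+ATP and AMP each raised 2 of the 4. Of 10 fibroblast markers, ATP medium raised 1 and lowered 6 at 24 h, and raised 1 and lowered 2 at 48 h. With ATP medium 11.1% and 7.83% of all genes were called at these times. The part of these shifts in the receptor levels was not tested.

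The genes whose log2 CPM ran most like a member over the 20 CF libraries, out of 10882 candidates, are given as a description, since these libraries share the same media. For P2rx7 they were Triobp (Pearson r = 0.995), Akr1b10 (0.992) and Tec (0.991). P2ry6 ran most like Naa40 (0.907), Osbpl6 (0.900) and Acad11 (0.898), and Adora2a like Cyp39a1 (0.854), 4930523C07Rik (0.842) and Sspn (0.829).

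Of 12 other purine receptors listed, 9 were in the CF table and 3 passed the filter, P2rx3, P2rx5 and P2rx6. P2rx3, an ATP-gated channel best known from sensory neurons, was at 2.39 and 2.31 CPM with vehicle at 48 h and 0.711 and 1.14 CPM with ENPP1+ATP, a change of -1.36 ± 0.36 (adjusted p = 0.003), and with AMP the change was -1.26 ± 0.35 (adjusted p = 0.0049). P2rx6 fell at 24 h by 1.46 ± 0.18 (adjusted p = 3.37e-07) with ENPP1+ATP and by 1.27 ± 0.18 (adjusted p = 1.32e-06) with AMP, and at 48 h its change was -0.53 ± 0.18 (adjusted p = 0.019) with ENPP1+ATP and -0.42 ± 0.18 (adjusted p = 0.058) with AMP. With ATP medium P2rx6 changed by -0.74 ± 0.17 (adjusted p = 0.0058) at 24 h and 0.13 ± 0.17 (adjusted p = 0.83) at 48 h. P2rx5 was not called in any of the 13 CF comparisons.

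Other parts of the signalling chain were read from lists of channels, G proteins and targets, in CFs mainly at 48 h. The share of all genes called, against which each count of a list is to be read, was 45.2% with ENPP1+ATP and 44.0% with AMP at 48 h, and 49.1% and 52.8% at 24 h. Of 5 ATP release genes tested, ENPP1+ATP medium raised 2 and lowered 1 (median log2 fold change 0.19, all genes -0.03): Gja1, which encodes connexin 43, changed by 1.30 ± 0.05, Calhm2 by 1.00 ± 0.08 and Slc17a9, the vesicular nucleotide transporter, by -0.83 ± 0.26. AMP medium raised 3 of the 5 (median 0.32): Gja1 by 1.44 ± 0.05, Calhm2 by 1.11 ± 0.08 and the pannexin channel gene Panx1 by 0.32 ± 0.11. At 24 h 2 of these 5 rose and 1 fell with ENPP1+ATP (median 0.04), and 3 rose and 1 fell with AMP (median 0.28). Of the 6 inflammasome genes tested 2 rose with each medium, Casp4 (0.39 ± 0.08 and 0.31 ± 0.08) and the pore-forming Gsdmd (0.19 ± 0.06 and 0.17 ± 0.06), with list medians of 0.12 and 0.24, where 45.2% and 44.0% of all genes were called. At 24 h 0 rose and 2 fell with ENPP1+ATP (median -0.21), and 2 rose and 3 fell with AMP (median -0.43). At 48 h the changes of Casp4 and Gsdmd were of small size beside that of P2rx7.

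Of 23 G protein and effector genes 6 rose and 6 fell with ENPP1+ATP (median 0.02), and 10 rose and 4 fell with AMP (median 0.13), where 45.2% and 44.0% of all genes were called. At 24 h 8 rose and 10 fell with ENPP1+ATP (median -0.07), and 7 rose and 11 fell with AMP (median -0.19), where 49.1% and 52.8% of all genes were called. At 48 h Gna15, a G protein alpha subunit of the Gq class, changed by 4.99 ± 0.56 (adjusted p = 5.88e-08) and 4.77 ± 0.56 (adjusted p = 1.32e-07), the adenylyl cyclase gene Adcy5 by 1.55 ± 0.60 and 2.25 ± 0.59, and the inhibitory subunit gene Gnai1 by -1.24 ± 0.08 and -1.10 ± 0.08. Of 5 receptor kinase and arrestin genes 2 fell with ENPP1+ATP (median 0.00): Arrb1 by 0.58 ± 0.09 and Grk5 by 0.25 ± 0.08. AMP lowered the same pair (-0.60 ± 0.09 and -0.25 ± 0.08) and raised Grk6 by 0.19 ± 0.07 (median -0.12). At 24 h 2 of these 5 rose and 1 fell with each medium (medians 0.11 and 0.10).

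Among 12 genes known to respond to cAMP, 3 rose and 0 fell with ENPP1+ATP at 48 h (median 0.16), and 4 rose and 2 fell with AMP (median 0.13), where 45.2% and 44.0% of all genes were called. Nr4a1 changed by 1.37 ± 0.14 and 1.61 ± 0.14 and Fosb by 1.19 ± 0.17 and 1.08 ± 0.17. Dusp1 rose by 0.93 ± 0.31 with ENPP1+ATP, and Rgs2 fell with AMP by 1.39 ± 0.25. At 24 h 6 of the 12 rose and 2 fell with ENPP1+ATP (median 0.46), and 7 rose and 2 fell with AMP (median 0.66), where 49.1% and 52.8% of all genes were called.

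In NRVMs P2rx4, P2ry1 and P2ry2 fell with ATP, with ENPP1+ATP and with AMP, while no member rose. Adora2b, which lay near the filter on low counts, was also called lower with ATP and with ENPP1+ATP. Adora1, the A1 receptor of the myocyte that couples to the inhibitory G protein, was at 16.5, 15.6 and 16.7 CPM with vehicle, whereas P2rx7 had 2 to 13 reads per library. P2rx4 was at 17.5, 17.2 and 17.3 CPM with vehicle, 13.1, 12.9 and 11.2 CPM with ATP, 13.9, 12.3 and 12.3 CPM with ENPP1+ATP and 9.67, 10.6 and 11.8 CPM with AMP. No library of these 3 treatments overlapped with vehicle, and the log2 fold changes were -0.48 ± 0.12 (adjusted p = 4.46e-04), -0.44 ± 0.12 (adjusted p = 0.0014) and -0.70 ± 0.12 (adjusted p = 3.06e-06).

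P2ry2 fell with all 3 of these treatments, and by different amounts. Its levels were 14.1, 16.2 and 15.1 CPM with vehicle, 10.3, 11.03 and 11.6 CPM with ATP, 7.88, 9.38 and 7.88 CPM with ENPP1+ATP and 6.12, 7.33 and 6.94 CPM with AMP. These 4 groups did not overlap with each other, and the log2 fold changes against vehicle were -0.46 ± 0.11 (adjusted p = 4.14e-04), -0.85 ± 0.12 (adjusted p = 3.11e-08) and -1.15 ± 0.12 (adjusted p = 3.35e-11). ENPP1+ATP lay below ATP by 0.39 ± 0.12 (adjusted p = 0.011), a call lost without ATP replicate 3, ENPP1+ATP replicate 1 or ENPP1+ATP replicate 3 (-0.35 to -0.34, adjusted p between 0.052 and 0.054).

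P2ry1 stood at 12.3, 12.5 and 11.2 CPM with vehicle and at 9.36, 9.49 and 8.16 CPM with ATP, 8.45, 7.98 and 10.0 CPM with ENPP1+ATP and 7.76, 7.53 and 7.71 CPM with AMP. Its log2 fold changes were -0.41 ± 0.12 (adjusted p = 0.0029), -0.44 ± 0.12 (adjusted p = 0.0017) and -0.65 ± 0.12 (adjusted p = 1.84e-05). Adora2b had only 10 reads in each vehicle library, 2 to 4 with ATP or ENPP1+ATP and 4 to 6 with AMP. It was at 0.687 to 0.760 CPM with vehicle and no more than 0.420 CPM with ATP, ENPP1+ATP or AMP. It may therefore have passed the filter only through the vehicle and ENPP1 groups, where it was high. Its calls are thus given as a description. Its differences were -1.87 ± 0.56 (adjusted p = 0.0041), -1.65 ± 0.55 (adjusted p = 0.01) and -1.06 ± 0.51 (adjusted p = 0.073), and the ENPP1+ATP value without ENPP1+ATP replicate 3 was -1.38 (adjusted p = 0.055).

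Adora1 did not pass in any NRVM comparison. It was at 20.0, 17.7 and 17.04 CPM with ATP, 17.5, 19.4 and 17.2 CPM with ENPP1+ATP and 15.7, 14.1 and 13.1 CPM with AMP. The differences were 0.17 ± 0.10 (adjusted p = 0.13), 0.15 ± 0.10 (adjusted p = 0.18) and -0.18 ± 0.10 (adjusted p = 0.11), and without AMP replicate 1 the last was -0.26 (adjusted p = 0.042). P2ry6 (13 to 34 reads), Adora2a (5 to 17 reads) and P2rx7 did not pass in any NRVM comparison, and P2ry14 (3 to 9 reads) was not tested.

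**Figure D3:**
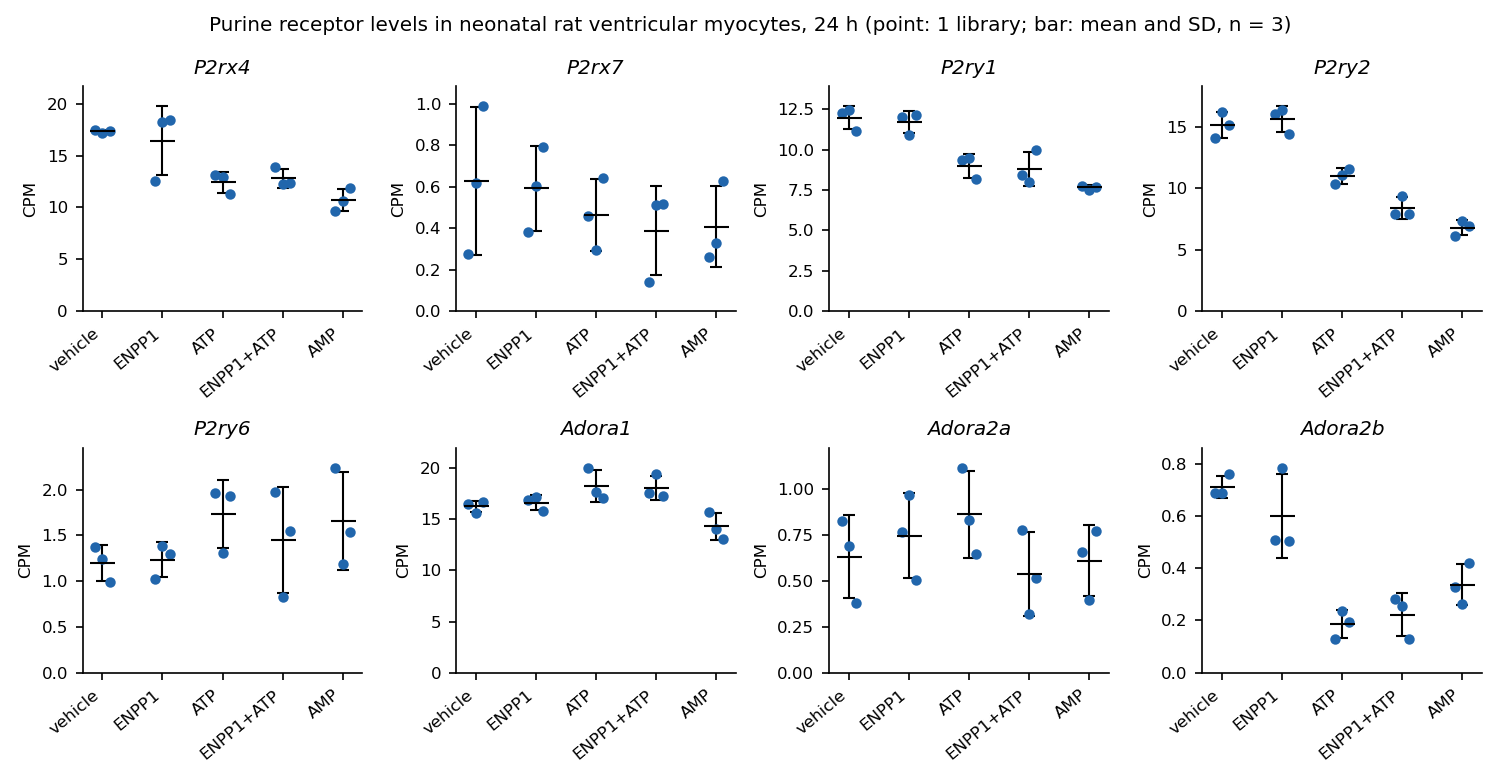
CPM (y axis, linear from 0) of 8 receptors in the 15 NRVM libraries by treatment (x axis), with 1 point per library and a bar at the mean ± SD of 3. P2rx4, P2ry1 and P2ry2 are lower in every library with ATP, ENPP1+ATP or AMP than in any with vehicle, whereas Adora1 stays between 13.1 and 20.0 CPM and P2rx7 and Adora2b lie at or below 0.988 CPM.

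With ATP 4 of 8 members were called in NRVMs, all lower, where 59.9% of all genes were called and 29.7% were called lower. ENPP1+ATP also gave 4 of 8, all lower (56.0% of all genes called, 27.4% lower), and AMP 3 of 8, all lower (57.2% and 28.0%). The 4 with ATP and the 4 with ENPP1+ATP include Adora2b, which lay near the filter on low counts. ENPP1+ATP against ATP gave 1 of 8 (27.5% of all genes). With ENPP1 alone edgeR called 0 of 8 and 0% of all genes (693 genes at an unadjusted p under 0.05), and DESeq2 called 0 members. The summed fibroblast markers of the NRVM libraries were 24929 to 26310 CPM with vehicle and 8446 to 12518 CPM with ATP, ENPP1+ATP or AMP, the summed endothelial markers 30.2 to 38.1 CPM and 39.4 to 101 CPM, and the summed cardiomyocyte markers 29159 to 30213 CPM with vehicle, 17608 to 18794 CPM with ATP and 26737 to 32429 CPM with ENPP1+ATP or AMP. The part of the fibroblasts among these cells in the receptor levels was not tested.

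Beyond the members, P2rx1, P2rx3, P2rx5 and P2ry4 passed the filter in NRVMs. With ATP all 4 were called, P2rx1 and P2ry4 near the filter on low counts, where 59.9% of all genes were. P2rx3 rose by 0.80 ± 0.27 (adjusted p = 0.0089) and P2rx5 by 0.44 ± 0.10 (adjusted p = 2.14e-04), whereas P2rx1 changed by -1.69 ± 0.51 (adjusted p = 0.0045). P2rx1 was at 0.756 to 0.988 CPM with vehicle and 0.129 to 0.327 CPM (2 to 5 reads) with ATP. It may have passed the filter only through the vehicle and ENPP1 groups, where it was high, so its call is given as a description. P2ry4, a receptor for UTP, changed by 2.53 ± 0.62 (adjusted p = 5.84e-04). It was at 0.851 to 1.31 CPM with ATP and no more than 0.792 CPM in any other library. It may therefore have passed the filter only through the ATP group, so its call is given as a description. ENPP1+ATP gave no call among them against vehicle (56.0% of all genes), and AMP raised P2rx3 by 0.65 ± 0.27 (adjusted p = 0.037). P2rx5 was lower with ENPP1+ATP than with ATP, at -0.57 ± 0.10 (adjusted p = 2.00e-05).

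The same signalling lists were read in NRVMs given ENPP1+ATP, where 56.0% of all genes were called and 27.4% were called lower. Of 6 ATP release genes 3 rose and 1 fell (median 0.04, all genes 0.01), among them Panx2 (1.11 ± 0.10), Gja1 (0.39 ± 0.04) and the volume-regulated channel gene Lrrc8a (0.28 ± 0.05). Of 5 inflammasome genes 0 rose and 2 fell (median -0.27), Casp4 (-1.58 ± 0.15) and Gsdmd (-0.35 ± 0.09). Of 21 G protein and effector genes 5 rose and 7 fell (median -0.05), and the largest changes were in the phospholipase gene Plcb1 (-2.71 ± 0.21), Adcy2 (-2.24 ± 0.33) and the calcium release channel gene Itpr2 (-0.68 ± 0.15). Of 6 receptor kinases and arrestins 3 rose and 1 fell (median 0.21), with Arrb2 at 1.01 ± 0.14, Arrb1 at -0.73 ± 0.13 and Grk5 at 0.23 ± 0.08. Of 12 cAMP response genes 4 rose and 5 fell (median -0.04), with Fosb at 2.22 ± 0.18, Areg at -1.38 ± 0.22 and Sik1 at -0.87 ± 0.07.

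With AMP (57.2% of all genes called) 1 of the 12 cAMP response genes rose and 7 fell (median -0.35), 0 inflammasome genes rose and 3 fell (median -0.39), 5 G protein and effector genes rose and 9 fell (median -0.06), 3 ATP release genes rose and 3 fell (median -0.13), and 3 receptor kinases and arrestins rose and 1 fell (median 0.16). With ATP (59.9% of all genes) the counts were 5 up and 4 down for the cAMP response genes (median 0.02), 0 and 1 for the inflammasome (median -0.09), 6 and 9 for G proteins and effectors (median -0.01), 2 and 2 for ATP release (median -0.03), and 3 and 1 for receptor kinases and arrestins (median 0.08). These comparisons share the vehicle libraries, and the difference between treatments was not tested for the lists.

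In the infarcted heart the receptors were divided among cell classes. Cells were clustered into 18 clusters, 16 of which were named from marker genes, and the counts of each class were summed per library. Since each genotype is 1 library, no test between genotypes is possible, and the values are given with exact Poisson intervals that cover counting error only. The class names were rebuilt here from markers. The other clusters, led by cell-cycle genes (97 cells in ENPP1CKO and 115 in control) and by mesothelial genes (30 and 116 cells), stayed unnamed.

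Among the 6 best-filled classes, macrophage-like cells (2033 in ENPP1CKO, 2521 in control) held the highest levels of P2rx4, P2rx7 and P2ry6 in both libraries. P2rx4 was at 198 CPM (control, 1677 counts) and 187 CPM (ENPP1CKO, 1294 counts), and P2ry6 at 148 CPM (control, 1256 counts) and 183 CPM (ENPP1CKO, 1273 counts). Adora2b was at 28.6 CPM (control, 243 counts) and 37.8 CPM (ENPP1CKO, 262 counts), against 35.9 CPM (15 counts) and 21.9 CPM (8 counts) in dendritic-like cells. P2rx7 was at 26.6 CPM (control, 226 counts) and 27.5 CPM (ENPP1CKO, 191 counts). In both libraries these 4 genes were lower in fibroblast-like cells (3662 and 1783 cells): P2rx4 at 51.4 and 59.0 CPM, P2rx7 at 9.01 and 10.1 CPM, P2ry6 at 2.86 and 5.94 CPM and Adora2b at 4.47 and 3.69 CPM, ENPP1CKO first. All 7 members that could be compared in CFs had counts in fibroblast-like cells of both libraries.

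Free RNA in droplets gives counts to cells that do not express a gene. The summed macrophage genes C1qa, C1qb and C1qc reached 0.884% (ENPP1CKO) and 1.63% (control) of their macrophage-like level in fibroblast-like cells, at median depths of 4026 and 5068 counts per cell. P2ry14 reached 1.72% and 1.70%, close to that background in control, and P2ry6 1.56% and 4.01%. P2rx4 (27.6% and 29.9%), P2rx7 (32.7% and 38.1%) and Adora2b (11.8% and 12.9%) lay well above it.

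**Figure D4:**
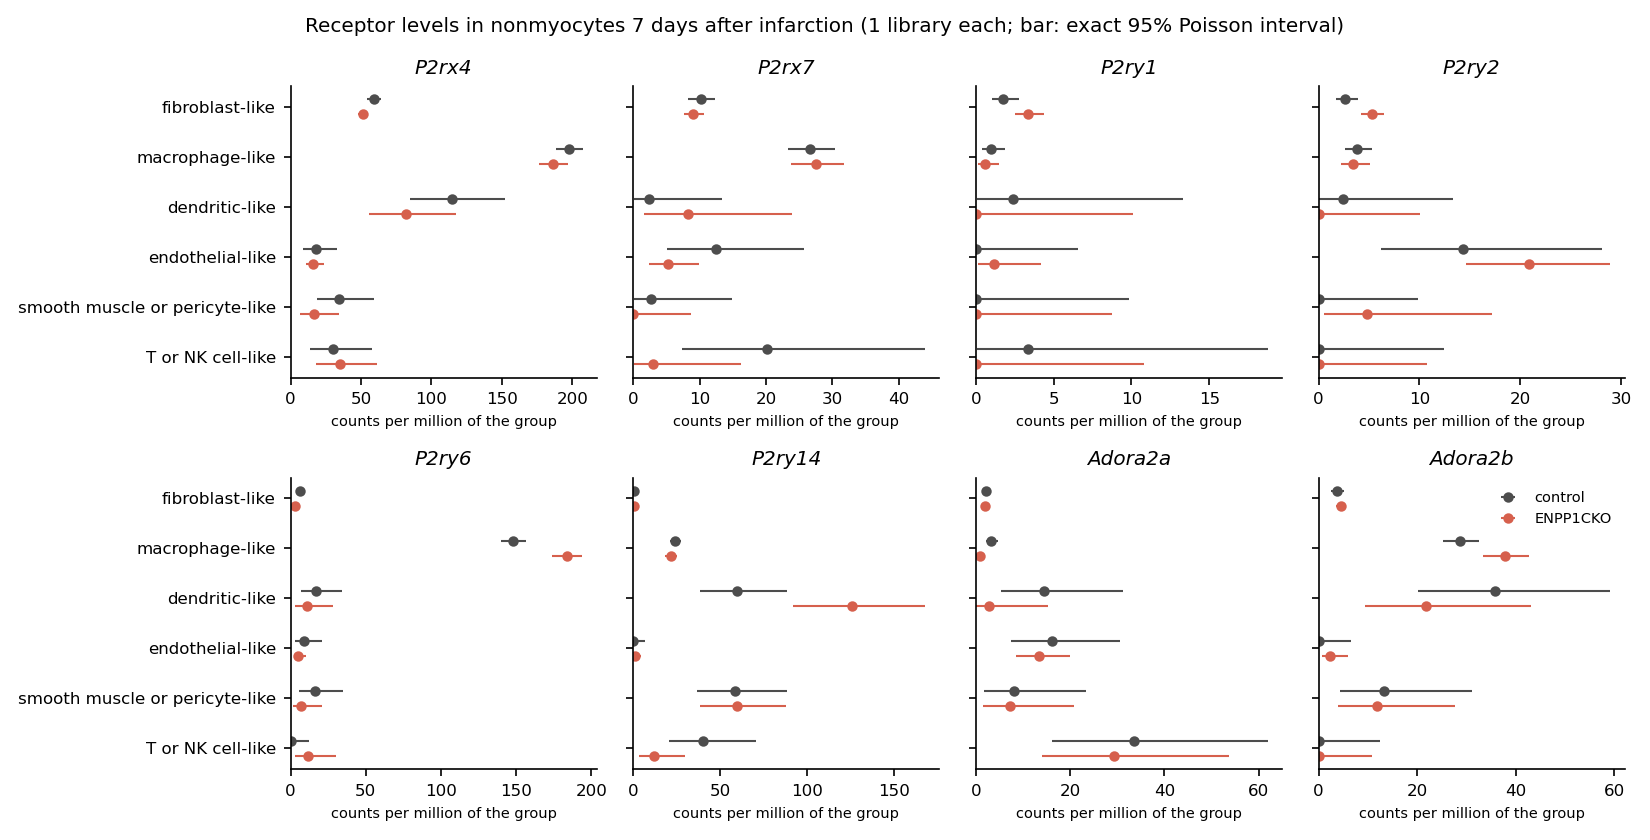
CPM of each class (x axis, linear from 0) for 8 receptors in 6 cell classes (y axis) 7 days after infarction, grey for control and red for ENPP1CKO, with 1 library each and exact 95% Poisson intervals. P2rx4 and P2ry6 are highest in macrophage-like cells, P2ry14 in dendritic-like and smooth muscle or pericyte-like cells, P2ry2 in endothelial-like cells and Adora2a in T or NK cell-like cells.

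P2ry14, P2ry2 and Adora2a were highest in other classes, and P2ry1 had 17 counts (control) and 54 counts (ENPP1CKO) in fibroblast-like cells. P2ry14, a receptor for UDP-sugars, was at 59.8 CPM (control, 25 counts) and 126 CPM (ENPP1CKO, 46 counts) of dendritic-like cells, and at 58.6 CPM (control, 22 counts) and 59.4 CPM (ENPP1CKO, 25 counts) of smooth muscle or pericyte-like cells. In T or NK cell-like cells it was at 40.4 CPM (control, 12 counts) and 11.7 CPM (ENPP1CKO, 4 counts), and in macrophage-like cells at 24.2 CPM (control, 205 counts) and 21.6 CPM (ENPP1CKO, 150 counts). P2ry2 was highest in endothelial-like cells at 14.3 CPM (control, 8 counts) and 20.9 CPM (ENPP1CKO, 36 counts). Adora2a, whose product is known to restrain T cells, was at 33.6 CPM (control, 10 counts) and 29.2 CPM (ENPP1CKO, 10 counts) of T or NK cell-like cells and at 16.1 CPM (control, 9 counts) and 13.4 CPM (ENPP1CKO, 23 counts) of endothelial-like cells. Adora1 had 7 and 1 counts in fibroblast-like cells and 2 and 3 in the unnamed clusters, so its place was not detectable at this depth.

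Between the genotypes, in macrophage-like cells 1 of 7 members with at least 20 counts differed by 1.5-fold or more, where 19.0% of all genes did. That gene was Adora2a, with 3.30 CPM (control, 28 counts) and 0.865 CPM (ENPP1CKO, 6 counts), a log2 ratio of -1.93 (95% interval -3.49 to -0.63). The log2 ratio (ENPP1CKO over control) was 0.31 (95% interval 0.20 to 0.42) for P2ry6 and 0.40 (95% interval 0.14 to 0.66) for Adora2b, -0.08 (95% interval -0.19 to 0.02) for P2rx4, 0.05 (95% interval -0.24 to 0.33) for P2rx7 and -0.16 (95% interval -0.47 to 0.15) for P2ry14. The median of all genes in this class was -0.13.

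The macrophage-like clusters were unequally filled. In control 909 of the 2521 macrophage-like cells fell into cluster 5 (with Ccl24 among its leading genes), in ENPP1CKO 77 of 2033, and this cluster held 16 of the 28 Adora2a counts of control. Within cluster 5 Adora2a was at 5.32 and 8.14 CPM (ENPP1CKO, control), a log2 ratio of -0.61 (95% interval -6.00 to 2.07). In cluster 0 it was at 0.377 and 1.53 CPM, a ratio of -2.02 (95% interval -5.30 to 0.30), and in cluster 6 the ratio was -0.57 (95% interval -3.34 to 1.99). P2ry6 was at 85.2 and 78.3 CPM in cluster 5, against 187 and 169 CPM in cluster 0. Within each cluster the P2ry6 ratio was smaller than over the class, at 0.14 (95% interval 0.01 to 0.28) in cluster 0, 0.12 (95% interval -0.72 to 0.87) in cluster 5 and 0.12 (95% interval -0.14 to 0.38) in cluster 6. For Adora2b the ratio was 0.60 (95% interval 0.24 to 0.96) in cluster 0, 0.70 (95% interval 0.18 to 1.24) in cluster 6, which was led by MHC class II genes, and -0.44 (95% interval -1.92 to 0.74) in cluster 5.

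Of the fibroblast-like cells 3 of 7 members with at least 20 counts differed by 1.5-fold or more, where 13.8% of all genes did. P2ry1 was at 1.74 CPM (control, 17 counts) and 3.35 CPM (ENPP1CKO, 54 counts), a log2 ratio of 0.95 (95% interval 0.14 to 1.82). P2ry2 was at 2.66 CPM (control, 26 counts) and 5.28 CPM (ENPP1CKO, 85 counts), a ratio of 0.99 (95% interval 0.34 to 1.68). P2ry6 was at 5.94 CPM (control, 58 counts) and 2.86 CPM (ENPP1CKO, 46 counts), a ratio of -1.06 (95% interval -1.65 to -0.47), at 1.56% (ENPP1CKO) and 4.01% (control) of its macrophage-like level. The background genes C1qa, C1qb and C1qc reached 0.884% (ENPP1CKO) and 1.63% (control) there, so they too were lower in ENPP1CKO. The part of free RNA in the P2ry6 ratio was not tested. The ratios were -0.20 (95% interval -0.35 to -0.04) for P2rx4, -0.17 (95% interval -0.55 to 0.21) for P2rx7, 0.28 (95% interval -0.32 to 0.90) for Adora2b and -0.04 (95% interval -0.89 to 0.84) for Adora2a.

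The largest fibroblast-like cluster was not the same in the 2 libraries. Cluster 1, led by Thbs4 and Cilp, held 1790 of 3662 cells in ENPP1CKO and 361 of 1783 in control, whereas cluster 3, led by Acan and Col11a1, held 399 and 671. P2ry1 was found mainly in cluster 1, at 5.89 and 5.89 CPM, where its log2 ratio was 0.00 (95% interval -0.97 to 1.09), and it was at 0.764 and 1.35 CPM in cluster 2 and 0.471 and 0.452 CPM in cluster 3. P2ry2 was at 6.38 and 7.49 CPM in cluster 1, a ratio of -0.23 (95% interval -1.11 to 0.73), and at 4.20 and 3.37 CPM in cluster 2 and 1.41 and 0.226 CPM in cluster 3. In the small cluster 10 it had 8 counts in ENPP1CKO and 1 in control (13.5 and 2.02 CPM), a ratio of 2.74 (95% interval -0.16 to 8.21), and P2ry1 had 1 and 0 counts. P2rx7 was at 10.2 and 12.8 CPM in cluster 1, 7.64 and 10.4 CPM in cluster 2, 7.54 and 8.36 CPM in cluster 3 and 10.2 and 14.2 CPM in cluster 10, with intervals of the ratio that include 0 in each. The P2ry6 ratio was -1.19 (95% interval -2.31 to 0.01) in cluster 1, -0.29 (95% interval -1.62 to 1.12) in cluster 2, -0.94 (95% interval -2.27 to 0.21) in cluster 3 and -0.84 (95% interval -3.11 to 1.23) in cluster 10. P2rx4 in cluster 1 was at 52.1 and 82.4 CPM, a ratio of -0.66 (95% interval -0.93 to -0.39). Its ratio was -0.14 (95% interval -0.44 to 0.15) in cluster 2 and -0.11 (95% interval -0.47 to 0.23) in cluster 3. In cluster 10 it was 0.22 (95% interval -0.43 to 0.88). For Adora2b the ratio was 0.87 in cluster 1, 0.82 in cluster 2, -1.68 in cluster 3 and -1.26 in cluster 10. For Adora2a it was 0.46 in cluster 1, 0.85 in cluster 2 and -2.11 in cluster 3, with 0 and 3 counts (ENPP1CKO, control) in cluster 10. The 95% intervals of these Adora2b and Adora2a ratios all included 0.

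**Figure D5:**
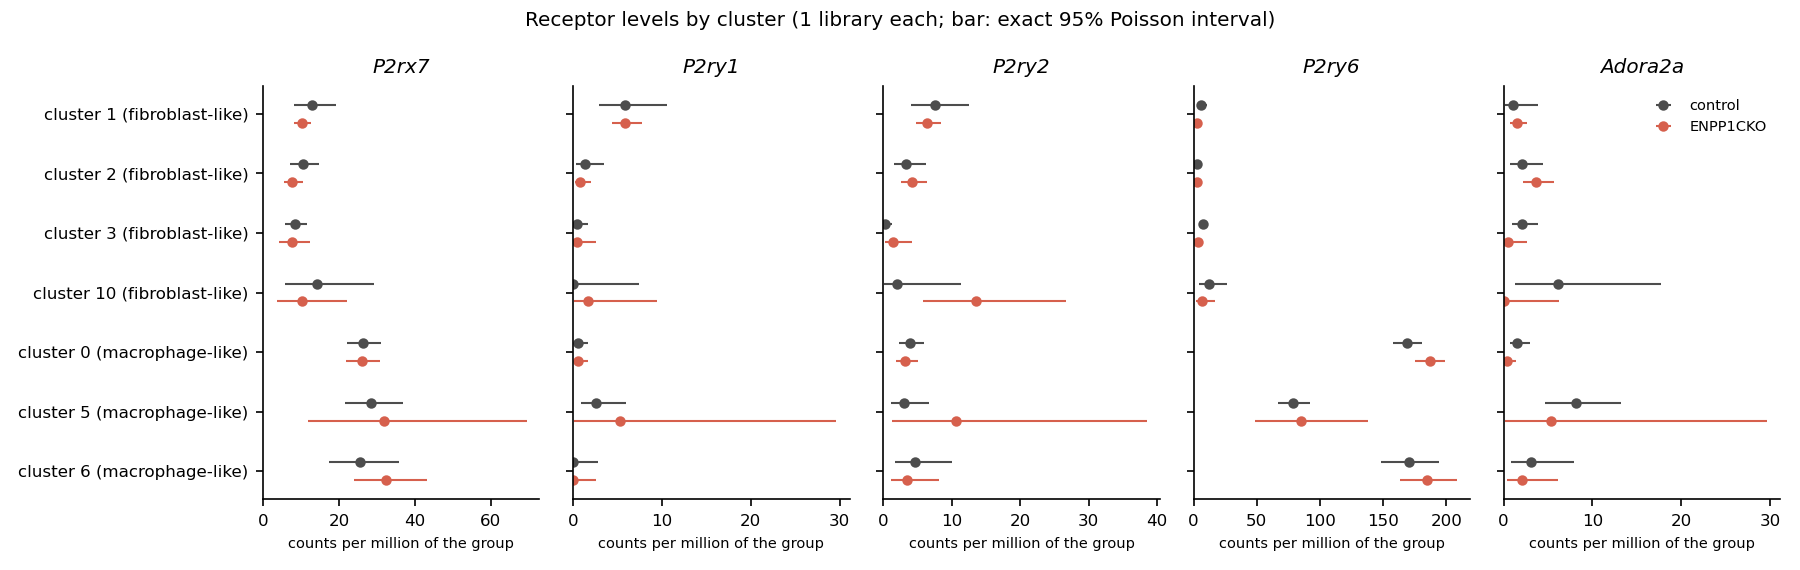
CPM of each cluster (x axis, linear from 0) for 5 receptors in the 4 fibroblast-like and 3 macrophage-like clusters (y axis), grey for control and red for ENPP1CKO, with exact 95% Poisson intervals and 1 library each. P2ry1 and P2ry2 are at like levels of both libraries within cluster 1, and P2ry6 is lower in cluster 5 than in clusters 0 and 6 in both libraries.

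In endothelial-like cells (932 and 192) 0 of 3 members with at least 20 counts differed by 1.5-fold, where 26.7% of all genes did. Their log2 ratios were 0.55 (95% interval -0.58 to 1.86) for P2ry2, -0.27 (95% interval -1.43 to 1.03) for Adora2a and -0.14 (95% interval -1.22 to 1.07) for P2rx4. The count of 0 became larger with predicted doublets kept and with TMM factors.

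The smaller classes gave few counts. In dendritic-like cells (81 and 96) 2 of 3 members differed by 1.5-fold, where 30.6% of all genes did, with ratios of 1.07 (95% interval 0.34 to 1.84) for P2ry14, -0.71 (95% interval -2.16 to 0.62) for Adora2b (8 and 15 counts) and -0.48 (95% interval -1.19 to 0.20) for P2rx4. In B cell-like cells (28 and 83) P2rx4 was the 1 member with at least 20 counts (6 and 17), at a ratio of -1.99 (95% interval -3.62 to -0.58), where 75.1% of all genes differed by 1.5-fold and their median ratio was -0.98. Smooth muscle or pericyte-like cells (158 and 77) gave -1.06 (95% interval -2.62 to 0.37) for P2rx4 (7 and 13 counts) and 0.02 (95% interval -0.86 to 0.92) for P2ry14 (29.8% of all genes). T or NK cell-like cells (178 and 141) gave 0.21 (95% interval -1.16 to 1.64) for P2rx4 and -0.20 (95% interval -1.62 to 1.22) for Adora2a (26.0%). Among receptors outside the group, P2ry12 (27.5 and 18.5 CPM) and P2ry13 (4.76 and 4.83 CPM) were found in macrophage-like cells, and P2ry10 in T or NK cell-like (202 and 172 CPM), dendritic-like (131 and 139 CPM) and B cell-like cells (19.9 and 168 CPM, 28 and 83 cells).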

How the data were processed

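RNA-seq counts per gene of 20 CF and 15 NRVM libraries and counts per gene and cell barcode of 2 single-cell libraries were used. The deposited counts were raw and were made by the authors from total RNA; their processing notes name STAR 2.5.3a, Cell Ranger, mm10 and rn6, and the counter, the annotation and the use of strand are not given in the sources used here. The members and gene lists were chosen with earlier results of these data known.

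Genes were filtered (filterByExpr), scaled (TMM) and tested with edgeR 4.0.16 (R 4.3.3), using the quasi-likelihood test in 1 fit per experiment with 1 mean per group. P-values were adjusted by Benjamini-Hochberg over all genes tested, and an adjusted p under 0.05 was called. Bulk CPM were computed on each library's total counted reads multiplied by its TMM factor, and single-cell CPM on the summed counts of a class or cluster in a library. All 9 members were named. From each other list up to 3 called genes of largest change were named for ENPP1+ATP and AMP in CFs at 48 h and ENPP1+ATP in NRVMs, and every other purine receptor that passed the filter was named. The 3 genes most like a member were sought among tested genes with mean log2 CPM of at least 2. The script was tested on simulated data.

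Cells were kept from 200 genes upward and up to 20% mitochondrial counts, and 151 (ENPP1CKO) and 69 (control) doublets predicted by Scrublet were removed. Cells were clustered with scanpy 1.11.5 (Leiden, resolution 0.5, 2000 variable genes, 30 components). Of 31053 identifiers 30934 were matched to a symbol. A cluster was named from its marker genes, and the rule that left clusters led by cell-cycle or mesothelial genes unnamed was written after the clusters were seen. Ratios between genotypes used genes with at least 20 counts over both libraries, and their intervals are exact.

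Alternatives were RLE scaling, no filter, DESeq2 1.42.0, fits of only the groups compared, a replicate block, each library left out, and other cell thresholds.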

Additional observations from a re-analysis of the deposited data

Results flagged for a closer look

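In CFs 5 changes with conditioned medium differed between 24 h and 48 h by the test of the difference itself (edgeR, log2 scale, 2 libraries per group), 2 of 7 members with ENPP1+ATP and 3 of 7 with AMP, where 30.0% and 31.7% of all genes were called. Adora2b differed by 2.06 with ENPP1+ATP and by 1.83 with AMP, being lower than vehicle at 24 h and not at 48 h. P2rx7 differed by 0.70 with ENPP1+ATP and by 0.43 with AMP, being higher than vehicle at both times and more so at 48 h. P2rx4 differed by 0.37 with AMP. The P2rx7 call with AMP was lost in 5 of 8 fits without 1 library (either vehicle 24 h replicate, vehicle 48 h replicate 1, AMP 24 h replicate 1 or AMP 48 h replicate 2, at 0.32 to 0.44). The P2rx4 call was lost in 4 of 8 (vehicle 24 h replicate 1, vehicle 48 h replicate 2, AMP 24 h replicate 1 or AMP 48 h replicate 2, at 0.21 to 0.36).

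Other pairs were set apart because every library moved one way in one setting and the opposite way in the other, and these differences were not tested. Of the 10945 genes tested in both CFs and NRVMs, matched by symbol, 14.3% with ATP and 18.5% with AMP lay on opposite sides of vehicle in CFs at 24 h and NRVMs, and 7.14% with ATP and 4.04% with ENPP1 did so between 24 h and 48 h in CFs. Against vehicle P2rx4 was higher with ATP medium in CFs at 24 h and lower with ATP in NRVMs, a difference in log2 fold change of 0.55. Adora2b was likewise higher in CFs and lower in NRVMs, a difference of 2.35. In NRVMs Adora2b had 10 reads in each vehicle library and 2 to 4 with ATP. It may have passed the filter there only through the vehicle and ENPP1 groups, so its pair is given as a description. With AMP, P2ry1 was higher in CFs at 24 h and lower in NRVMs, a difference of 0.67, of which the CF change was only 0.03 ± 0.12. Between 24 h and 48 h in CFs, P2ry1 with ATP medium differed by -0.51 and Adora2b with ENPP1 medium by -0.51, both lower than vehicle at 24 h and higher at 48 h. None of the CF values in these pairs passed the threshold.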

How the results depend on the processing

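The number of members called stayed within 1.5 times under 100 of 106 other settings that left out no library. It became 2 in place of 1 for ATP medium at 24 h in CFs without the filter and with only the groups compared, and 4 in place of 2 for ATP medium at 48 h with only the groups compared, where Adora2a (-1.19, edgeR adjusted p = 0.0030) and Adora2b (0.65, adjusted p = 0.036) were added. The Adora2a call with ENPP1+ATP at 48 h was lost with RLE scaling (adjusted p = 0.053) and with only the groups compared (adjusted p = 0.11). In single cells, members past 1.5-fold in endothelial-like cells became 2 with predicted doublets kept and 1 with TMM factors in place of 0, and in macrophage-like cells 0 in place of 1 at a minimum of 50 counts. The P2rx4 ratio of macrophage-like cells was 0.02 with TMM factors in place of -0.08. The cause was not tested.

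With 1 library left out, the members called ranged from 1 to 3 for the AMP change over time, 3 to 4 for AMP at 24 h, 2 to 4 for AMP at 48 h, 1 to 2 for ATP at 48 h, 1 to 3 for ENPP1+ATP against ATP at 48 h, 1 to 3 for ENPP1+ATP at 48 h, 2 to 3 for its change over time, 3 to 3 for ENPP1+ATP at 24 h, and in NRVMs 0 to 1 for ENPP1+ATP against ATP, 3 to 4 for ENPP1+ATP and 3 to 4 for AMP. Uncalled values turned sign in 5 fits. Adora2a with ENPP1+ATP ranged from -2.34 to 0.085 over time (above 0 without ENPP1+ATP 48 h replicate 1), and from -1.74 to 0.69 against ATP at 48 h (above 0 without ATP replicate 2, 0.07, or ENPP1+ATP replicate 1). With AMP at 48 h Adora2b ranged from -0.025 to 0.95 and P2rx4 from -0.015 to 0.30, both below 0 without AMP replicate 2.

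With the replicate block all 18 counts of members and all 51 member results compared stayed on their side of the threshold. Deviations of same-numbered libraries correlated between -0.106 and 0.132, so the numbers were not taken to pair the libraries. For ATP medium at 24 h 1983 genes were called, 2129 with the replicate block and 2091 with crossed numbers, a pairing added after seeing the data, with 1 member in each. Depth limits P2ry6, Adora2a and Adora2b in both cultures, P2ry14 in both and Adora1 in CFs, and in single cells 1 library per genotype and low counts limit the ratios.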
